A study of Mus musculus with 2 samples.

Results

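Among the CD45+ cells infiltrating TSA tumors, 264 of 6198 cells made up a myeloid population with high levels of Tgfbi, Htra3, Dpep2, Tnni2 and Kcnn4. Of these, 100 came from 2922 cells of the untreated library and 164 from 3276 cells of the NAM library. They are called Tgfbi Htra3 cells in what follows. Each cell was scored by the mean, over these 5 genes, of ln(1 + 10000 × UMIs of the gene / UMIs of the cell), where a UMI (unique molecular identifier) stands for 1 captured RNA molecule. The 372 cells at or over a score of 1.12748, the highest 6% of all cells, were taken. Cells with any Cd3e or Ncr1 UMI (T and NK cells), with more than 1 UMI of Ly6c2, with more than 1 UMI of Xcr1 and Clec9a together (type 1 dendritic cells), or with 3 or more UMIs of Birc5, Top2a and Ube2c (dividing cells) were then left out. Ly6c2 removed 63 of the 372 cells, the division genes 46, Cd3e 8, Ncr1 2 and the dendritic cell genes 0, and a cell could meet more than 1 of these criteria.

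TSA is a mouse mammary adenocarcinoma cell line, which was grown subcutaneously in Balb/c mice. Mice were randomized to a treatment once tumors were established and were either left untreated or received 0.5% NAM (nicotinamide, a form of vitamin B3) in the drinking water for 10 days. Tumors of 3 mice per group were dissociated and pooled, and CD45+ cells, which comprise all leukocytes, were separated with magnetic beads. With 1 pooled library per group the mice cannot be told apart, and the treatment cannot be told apart from library preparation, so no difference between libraries was tested and intervals cover counting error only. Mice were female and between 6 and 15 weeks old, a range given for all strains of the study and not per group.

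Circulating monocytes that express Ly6c2 and the chemokine receptor Ccr2 enter tumors and differentiate there, losing Ly6c2 and acquiring macrophage products such as the complement component C1q and apolipoprotein E. Cells on this path carry genes of both states in varying proportion. Tgfbi encodes a secreted matrix protein that is induced by TGF-beta and binds integrins and collagen. Htra3 encodes a secreted serine protease of the HtrA family, Dpep2 a membrane dipeptidase that converts leukotriene D4 to E4, Kcnn4 a calcium-activated potassium channel, and Tnni2 the inhibitory subunit of fast skeletal muscle troponin.

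Sequences are shown for the genes that chose the cells, since the cells are named for them and their promoters could share a motif. RefSeq promoters (GRCm38.p6, 250 bases before to 50 bases from the start site, 5′ to 3′ on the strand of the gene) were matched for 3 of the 5 score genes, Tgfbi, Htra3 and Kcnn4, and Ccr2 was added as the monocyte receptor. Dpep2 and Tnni2 are named only. In GENCODE vM21 the Tgfbi and Ccr2 genes begin at 56609523 and 124101950, before the start sites used for these windows. Nearly all of the Ccr2 window thus lies inside that gene entry, and a motif missing there does not describe the bases before it. Capitals mark matches on either strand to a GC box (GGGCGG), a PU.1 motif (GAGGAAG) or a SMAD box (CAGACA).
Tgfbi, chr13:56609336-56609635, plus strand: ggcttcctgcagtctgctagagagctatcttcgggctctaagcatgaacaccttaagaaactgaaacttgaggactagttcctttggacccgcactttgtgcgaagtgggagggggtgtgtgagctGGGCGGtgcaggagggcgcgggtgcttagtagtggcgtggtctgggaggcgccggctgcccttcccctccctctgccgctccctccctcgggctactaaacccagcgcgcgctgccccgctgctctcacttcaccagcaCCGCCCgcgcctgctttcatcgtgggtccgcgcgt
Htra3, chr5:35679731-35680030, minus strand: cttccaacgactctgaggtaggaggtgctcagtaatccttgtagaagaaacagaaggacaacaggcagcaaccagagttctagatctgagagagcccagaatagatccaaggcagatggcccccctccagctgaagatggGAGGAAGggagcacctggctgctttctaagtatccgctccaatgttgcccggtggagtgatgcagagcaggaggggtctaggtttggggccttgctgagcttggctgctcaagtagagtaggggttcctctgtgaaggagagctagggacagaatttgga
Kcnn4, chr7:24370013-24370312, plus strand: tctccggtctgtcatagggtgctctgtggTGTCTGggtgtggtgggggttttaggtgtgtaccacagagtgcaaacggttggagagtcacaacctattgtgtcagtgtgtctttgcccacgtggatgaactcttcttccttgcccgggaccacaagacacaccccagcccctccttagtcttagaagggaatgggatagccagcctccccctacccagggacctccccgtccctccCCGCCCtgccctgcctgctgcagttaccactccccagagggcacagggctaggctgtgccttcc
Ccr2, chr9:124101933-124102232, plus strand: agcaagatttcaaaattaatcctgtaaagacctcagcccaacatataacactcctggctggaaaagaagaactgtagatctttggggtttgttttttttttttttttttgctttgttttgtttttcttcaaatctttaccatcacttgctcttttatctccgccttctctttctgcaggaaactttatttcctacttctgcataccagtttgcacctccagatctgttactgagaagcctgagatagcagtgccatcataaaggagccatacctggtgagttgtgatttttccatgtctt

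No motif searched was found in all 4 windows. The GC box was found in Tgfbi, at −124 and +16 from the start site, and in Kcnn4, at −14. PU.1 is a transcription factor of the myeloid lineage, and its motif was found once, at −110 of Htra3. The SMAD box, bound by the transcription factors of the TGF-beta pathway, was found once, at −221 of Kcnn4 on the reverse strand, and not in the Tgfbi window. Of 32851 promoters of this length, 35.7% held the GC box, 13.6% the PU.1 motif and 21.0% the SMAD box. An E box (CANNTG, in 72.3% of promoters) was in the windows of Htra3, Kcnn4 and Ccr2. An AP-1 site (TGANTCA, in 7.81%) and a TATA box (TATAAA, in 13.6%) were in none of the 4 windows. A match describes the letters of a window and not binding.

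The members were checked against genes that the rule did not use and against markers of other cells. Members had a median of 9184.5 and 9634.5 UMIs and of 2494 and 2608 genes per cell in the untreated and NAM library, and all paired values below are in this order. Their mitochondrial share was 2.28% and 2.40%. Cells totalled 3001 to 41658 UMIs, 11 barcodes occurred in both libraries, none of them in members, and doublets were not removed. Summed T cell markers were at 10.4 and 10.3 CPM (UMIs of a gene per 1000000 UMIs of the summed cells), neutrophil markers at 31.1 and 40.5, with Retnlg, Cxcr2, Ly6g and Mmp8 at 0, and NK cell markers at 23.8 and 33.3. Erythroid markers were at 29.0 and 47.2 CPM in members, 15.5 and 3477 in the Ly6c2 monocytes and 21.2 and 542 in the C1q cells that served as references, so red cell RNA was higher in the NAM library in both references. Skeletal muscle markers other than Tnni2 were at 10.4 and 7.87 CPM, with Tnnt3, Tnnc2, Myh1 and Myh4 at 0. B cell markers were at 47.7 and 29.0 CPM, nearly all of it Cd79b, with Cd79a at 0. The part of other cells' RNA in the values of the members and references was not tested.

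Ly6c2 monocytes and C1q cells served as references, without the members. The exclusions were the same, apart from that of Ly6c2 for the monocytes. The monocytes, with at least 2 UMIs of Ly6c2, numbered 269 and 307 cells, and cells in which C1qa, C1qb and C1qc made up 0.2% or more of UMIs, called C1q cells, numbered 1561 and 1685. Median depth was lower in the Ly6c2 monocytes (6475 and 5677 UMIs) than in the C1q cells (9329 and 9380). The summed members held 964986 and 1652656 UMIs, so that a count of 0 allowed up to 3.11 and 1.82 CPM (3 UMIs).

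The 5 genes that gave the score were higher in the Tgfbi Htra3 cells than in both references, as they were chosen to be, and these values describe the selection. Tgfbi (chromosome 13, 56609523 to 56639562, GRCm38) was at 1720.2 and 1823 CPM in the Tgfbi Htra3 cells, 1182 and 1016 in the Ly6c2 monocytes and 413 and 547 in the C1q cells. Htra3 (chromosome 5, 35652023 to 35679782) was at 125 and 111 CPM, while monocytes had 29.5 and 18.1 and C1q cells 23.8 and 23.8. For Htra3 both references lay near each other, whereas for Tgfbi the monocytes were above the C1q cells. Scored on the other 4 genes alone, the selected cells were at log2 ratios of −0.28 and 0.27 against monocytes for Tgfbi. Dpep2 (chromosome 8, with 2 overlapping gene entries from 105984944) was at 356 and 471 CPM in these cells, 182 and 211 in monocytes and 123 and 159 in C1q cells. Kcnn4 (chromosome 7, 24370263 to 24386690) was at 249 and 244 CPM in members, against 49.2 and 49.1 in monocytes and 64.8 and 60.3 in C1q cells. Tnni2 (chromosome 7, 142441808 to 142444410) was at 85.0 and 61.1 CPM, compared with 23.8 and 18.1 in monocytes and 8.01 and 3.77 in C1q cells. The rule gave cells just inside and just outside the threshold nearly equal scores, 1.12751 and 1.12705.

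**Figure D1:**
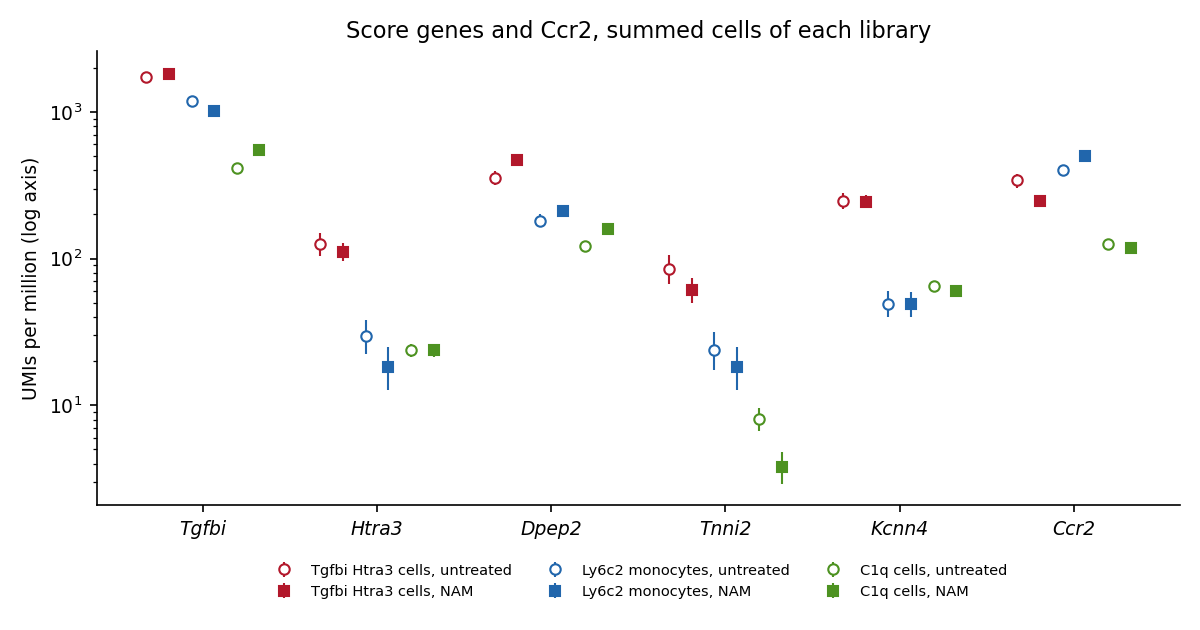
Level of the score genes and Ccr2 in CPM (log axis) in the summed cells of each population. Open circles are the untreated library, filled squares the NAM library, and bars are exact 95% Poisson intervals of counting. The Tgfbi Htra3 cells are highest for the 5 score genes, while for Ccr2 the Ly6c2 monocytes are highest, at 401 and 498 CPM.

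Members seldom carried all 5 genes. Of the 264 cells, 40 had a UMI of every score gene, 154 of 4 of them, 68 of 3 and 2 of 2. A Htra3 UMI was seen in 70.0% of untreated (95% exact binomial interval 60.0 to 78.8) and 64.0% of NAM members (56.2 to 71.4), and a Tnni2 UMI in 37.0% (27.6 to 47.2) and 36.0% (28.6 to 43.8). After thinning every cell to 3000 UMIs these shares were 32.0% and 26.2% for Htra3 and 15.0% and 18.3% for Tnni2. In T cells (2 or more Cd3e UMIs, 180 and 256 cells with a median of 4731 and 4601.5 UMIs), which should lack both genes, the thinned shares were 0.556% and 0.391% for each. Kcnn4, which T cells themselves are known to express, was seen in 50% and 51.8% of thinned members and in 16.1% and 14.5% of thinned T cells. A Tnni2 UMI was thus seen in a minority of the members of both libraries.

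The other marker given for this population, Ccr2, was not part of the score. This receptor for the chemokine Ccl2 (chromosome 9, 124101950 to 124113557) was at 341 (305 to 379.8) and 247 (223 to 272) CPM in the Tgfbi Htra3 cells, with exact Poisson intervals in brackets, against 401 and 498 in the Ly6c2 monocytes and 125 and 118 in the C1q cells. Members were therefore above the C1q cells in both libraries, by 1.45 and 1.07 on the log2 scale, and below the monocytes, with log2 ratios of −0.23 and −1.01. With monocytes taken by Ly6c2 alone and no other exclusion, the untreated ratio was 0.040 (−0.15 to 0.22). Ccr2 was lower in NAM than in untreated members, with a log2 ratio of −0.47 (−0.68 to −0.25). Among the top 4% of scores it stood at −0.21 (−0.47 to 0.053) and after thinning at −0.20 (−0.39 to 0.0053), with intervals that take in 0. In monocytes Ccr2 was higher with NAM, at 0.32 (0.18 to 0.45). These populations were defined from measured values of the same cells, so their differences are a description and were not tested.

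By C1q, most Tgfbi Htra3 cells lay with the macrophages. The median C1q share was 1.01% and 1.41% of UMIs, compared with 0.0606% and 0.0618% in Ly6c2 monocytes and 1.81% and 2.06% in C1q cells. A share of 0.2% or more was reached by 76 of 100 untreated and 141 of 164 NAM members. The remaining 47 members overlapped the monocytes in C1q share. Of the 576 Ly6c2 monocytes, 149 also reached 0.2%, so C1q did not separate these populations fully. Of the members, 232 had 0 Ly6c2 UMIs and 32 had 1.

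**Figure D2:**
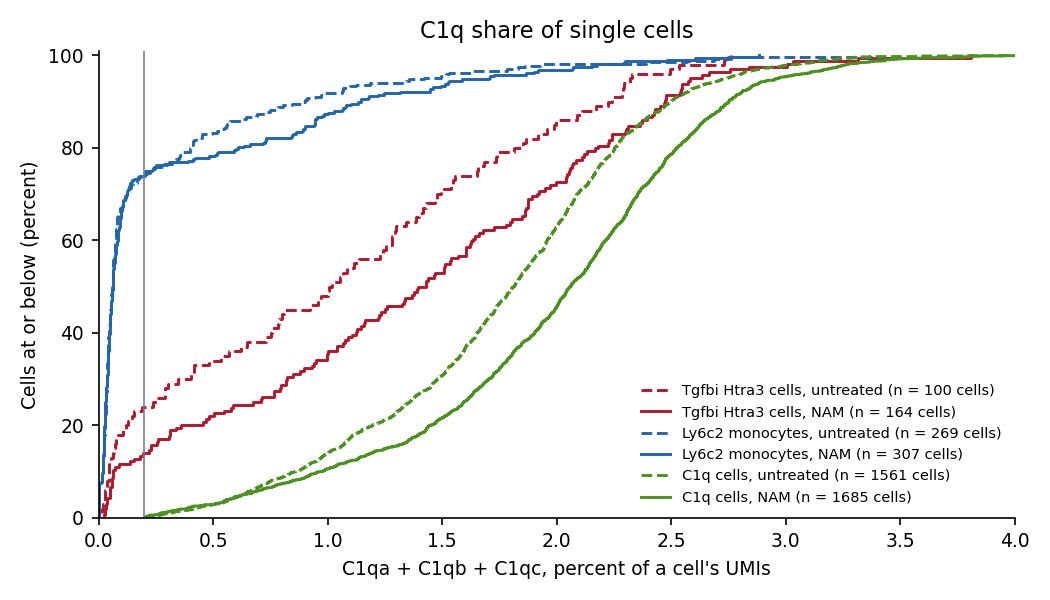
Percent of cells (vertical axis) whose C1qa, C1qb and C1qc UMIs together are at or below a share of the cell's UMIs (horizontal axis, percent). Dashed lines are the untreated and solid lines the NAM library, and the vertical line marks 0.2%. Members run from monocyte-like shares to those of C1q cells, with medians of 1.01% and 1.41%.

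Against the Ly6c2 monocytes, most monocyte genes were lower and part of the macrophage genes higher in the Tgfbi Htra3 cells. Of 25 monocyte genes with at least 100 UMIs over both populations, 18 were lower by 1.5-fold or more in both libraries and 0 were higher, with a median log2 ratio of −1.46 and −1.33. Among all 5323 genes so compared, 8.87% were lower and 9.86% higher by this criterion, and the median ratio was 0.11 and 0.15. Plac8, a small cysteine-rich protein of monocytes and granulocytes, was at 141 and 53.9 CPM, while monocytes had 2722 and 2902 and C1q cells 115 and 91.0. Ly6c1, the neighbor of Ly6c2, was at 7.25 and 1.82 CPM in these cells, 1472 and 1415 in monocytes and 3.31 and 3.10 in C1q cells. Hp, which encodes haptoglobin, was at 4.15 and 3.03 CPM in the Tgfbi Htra3 cells and 85.9 and 86.3 in the monocytes. Thbs1, which encodes the secreted thrombospondin 1 that can activate latent TGF-beta, was at 22.8 and 23.6 against 252 and 292 CPM. The 12 genes lowest against monocytes also included Ifitm6, Slpi, Ccr7, Cd209a, Inhba, Ly6i and Ifit1bl1. A count of Ly6c2 was part of the rule, and Ly6c2 is 1 of the 18. Compared with the C1q cells, 5 of 21 monocyte genes were higher and 4 lower, with a median of 0.16 and 0.18.

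S100a4 and S100a6, small calcium-binding proteins listed with the monocyte genes, did not follow this pattern. S100a6 was at 2503 and 2662 CPM in members, against 2528 and 2489 in monocytes and 841 and 939 in C1q cells. S100a4 was at 769 and 647 CPM, compared with 611 and 405 in monocytes and 213 and 167 in C1q cells. Both thus lay at or above the monocyte level in the Tgfbi Htra3 cells and at least 1.5-fold above the C1q cells. Lsp1, a leukocyte actin-binding protein, was at 270.5 and 215 CPM, while monocytes had 309 and 326 and C1q cells 53.2 and 63.8, which put the members nearer to the monocytes. Lsp1 was singled out after its values were seen and lies 16399 bases from Tnni2 on the same strand of chromosome 7.

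Of 27 macrophage genes, 13 were higher in the Tgfbi Htra3 cells than in the Ly6c2 monocytes by 1.5-fold or more in both libraries and 2 were lower, with a median of 0.74 and 0.55. C1qa was at 4482 and 5449 CPM in these cells, 1411 and 1861 in monocytes and 7247 and 7890.2 in C1q cells. Ms4a7, a tetraspan protein of macrophages, was at 2522 and 2340.5 CPM in members, against 1176 and 799.6 in monocytes and 1815 and 1797 in C1q cells. Trem2, a lipid-sensing receptor, was at 525 and 502 CPM, compared with 178 and 169 in monocytes and 447 and 446 in C1q cells. Ms4a7 and Trem2 were therefore higher in the members than in either reference, and so was the C-type lectin family member Cd72, at 754 and 756 CPM, while monocytes had 376 and 417 and C1q cells 531 and 657. Cd63, a tetraspanin of late endosomes, was at 1045 and 1266 CPM in these cells, 485 and 396 in monocytes and 1466 and 1632 in C1q cells. The 2 macrophage genes lower than in monocytes were Vcam1 and Mmp13.

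Compared with the C1q cells, macrophage genes went the other way. Of 28 macrophage genes, 13 were lower in the Tgfbi Htra3 cells in both libraries and 0 were higher, with a median of −0.71 and −0.48, whereas 4.63% of all 9281 genes were lower and 5.20% higher. C1q itself chose these reference cells. Apoe, the apolipoprotein of lipid-laden macrophages, was at 5922 and 6366 CPM in members, against 5899 and 7257 in monocytes and 18621 and 17872 in C1q cells. The members were thus near the monocytes for Apoe. An Apoe UMI was also seen in 85.6% and 73.4% of thinned T cells, and the part of other cells' RNA in these levels was not tested. Ccl8, a chemokine of tissue macrophages, was at 334 and 530.1 CPM, compared with 600.3 and 858 in monocytes and 6956 and 6056 in C1q cells, which was below both references. Mrc1, the mannose receptor, was at 155 and 134 CPM, while monocytes had 89.0 and 71.1 and C1q cells 396 and 261. Vcam1, an adhesion molecule, was at 30.1 and 29.0 CPM in these cells, 74.0 and 51.0 in monocytes and 245 and 222 in C1q cells. Cd163, the haemoglobin scavenger receptor, was at 1.04 and 0.605 CPM in the members, which is 1 UMI in each library, and at 36.1 and 18.6 in the C1q cells. The lectin gene Cd209g had no UMI in members and was at 11.0 and 23.1 CPM in C1q cells, at least 3.54-fold and 12.7-fold higher against a floor of 3 UMIs per library. Cd209f, C6, Ppbp, Arhgap19, Retnla, Cd209d, Art2b and 4833445I07Rik were also among the 12 lowest against C1q cells. All but C6 had no UMI in members, so their rank rests on the pseudocount. Against the floor, C1q cells were at least 1.30-fold higher for untreated 4833445I07Rik and 1.47-fold for untreated Art2b. In the NAM library these bounds were 1.58-fold for Cd209d and 1.68-fold for Retnla. Scored without Kcnn4, the ratio over NAM C1q cells was 1.95 (0.88 to 2.86) for Retnla and 0.12 (−1.97 to 1.42) for Cd209d.

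**Figure D3:**
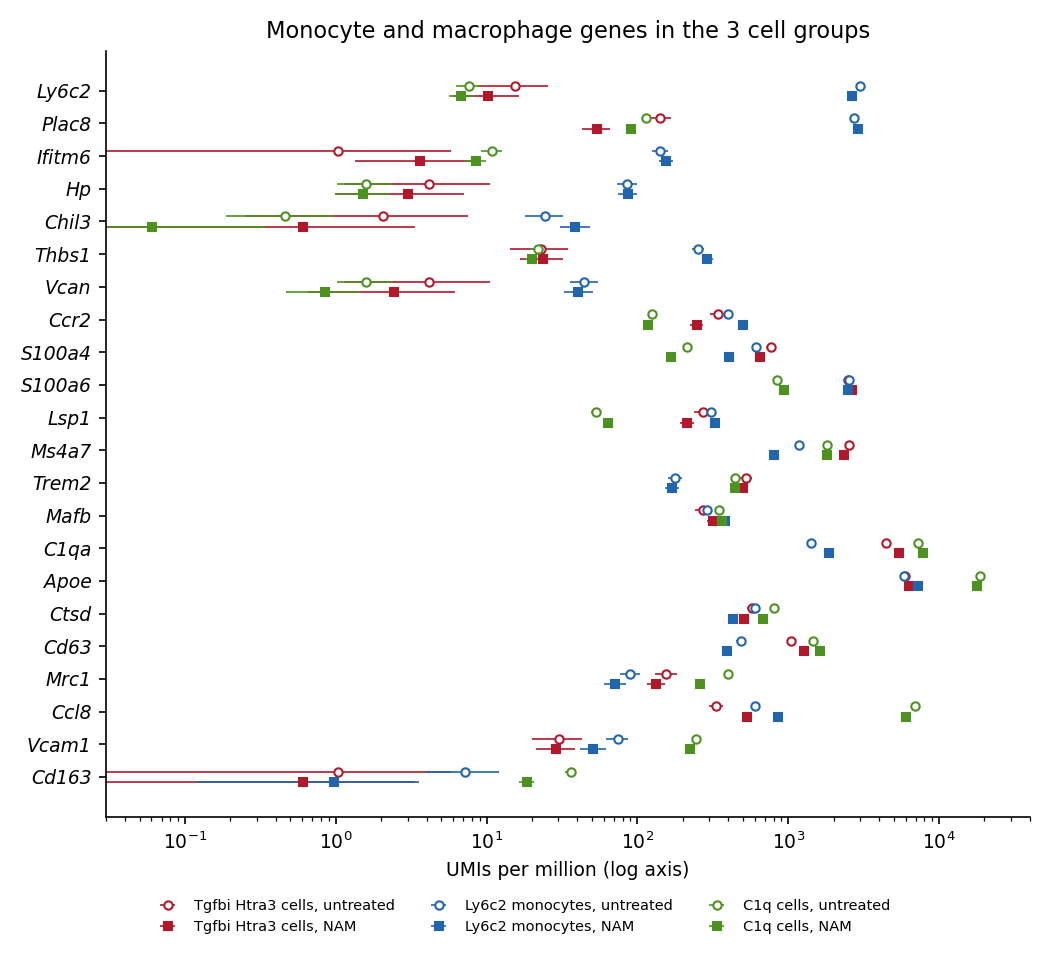
Level in CPM (log axis) of monocyte genes (top) and macrophage genes (bottom) in the 3 populations, with open circles for the untreated and filled squares for the NAM library. Bars are exact 95% Poisson intervals, cut at the left edge where they reach below it. Tgfbi Htra3 cells sit far below the monocytes for Plac8 and near the C1q cells for Thbs1, with the monocytes for S100a6 and Apoe, and above both for Ms4a7.

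The word intermediate therefore fits a part of the genes. Of 600 genes at least 1.5-fold higher in monocytes than in C1q cells, leaving out those of the rule, the members lay between both references in both libraries for 248 (41.3%), at or past the C1q cells for 140 and at or past the monocytes for 12. Of 1026 genes higher in C1q cells, they lay between for 331 (32.3%), at or past the C1q cells for 219 and at or past the monocytes for 42. The remaining 200 and 434 genes differed between libraries in where the members lay. On a scale from 0 (C1q cells) to 1 (monocytes) in log2 ratios, the median position over these genes was 0.16 and 0.15 for the monocyte set and 0.28 and 0.13 for the C1q cell set. Members thus lay closer to the C1q cells on the median. Scaling by the median gene would move ratios against monocytes by at most 0.13 and against C1q cells by at most 0.099.

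Several MHC class II and chemokine genes were lower in the Tgfbi Htra3 cells than in both references, while few genes of class I presentation were. Of 8 MHC class II genes, 5 were lower than in monocytes (median −0.97 and −0.76), and of 9 compared with C1q cells 5 were lower (−1.07 and −0.77). H2-Aa, which encodes the alpha chain of I-A, was at 3158 and 5471 CPM in members, against 8176 and 11338 in monocytes and 7211 and 9328 in C1q cells. Cd74, the invariant chain, was at 10377 and 15758 CPM, compared with 21229 and 28193 in monocytes and 21755 and 27422 in C1q cells. H2-Eb1, the beta chain of I-E, was at 1995 and 3248 CPM, while monocytes had 4279.9 and 6028 and C1q cells 4636 and 6240.3. All 3 genes showed the members lowest in both libraries. Of 19 genes of MHC class I and peptide loading, 4 were lower than in monocytes and 0 higher (−0.28 and −0.46), and of 20 compared with C1q cells 2 were lower and 0 higher (−0.0058 and −0.22).

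Of 18 CC and CXC chemokines, 10 were lower than in monocytes and 2, Cxcl14 and Pf4, were higher. Of 19 compared with C1q cells, 11 were lower and 1, Cxcl14, was higher, with a median of −1.19 and −0.87. A gene of this list at 0 took its ratio from the pseudocount, and at its bound the untreated median was −0.76. Cxcl14, a chemokine of epithelia and macrophages, was at 113 and 95 CPM in these cells, 18.6 and 12.3 in monocytes and 55.5 and 56.1 in C1q cells. Cxcl9, which attracts T cells through Cxcr3, was at 90.2 and 102 CPM in members, against 336 and 402 in monocytes and 270.3 and 411 in C1q cells. Ccl3 was at 170.0 and 132 CPM, compared with 529.9 and 267 in monocytes and 594 and 421 in C1q cells. Il1b, a pyrogenic cytokine, was at 1204 and 1631 CPM, while monocytes had 5621 and 5099 and C1q cells 2135 and 2151. Of 20 inflammatory and regulatory cytokines, 10 were lower than in monocytes and 0 higher, and of 26 compared with C1q cells 2 were lower.

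Interferon-induced genes were lower in the Tgfbi Htra3 cells than in monocytes. Of 28 type I interferon response genes, 25 were lower than in Ly6c2 monocytes in both libraries, with a median of −1.39 and −1.63. Only 6 of 28 were lower than in C1q cells and 1, Ifitm1, was higher, with a median of −0.12 and −0.27. Isg15, a ubiquitin-like modifier, was at 291 and 257 CPM in these cells, 1438 and 1375 in monocytes and 305 and 339 in C1q cells. Ifit3 was at 54.9 and 34.5 CPM in members, against 119 and 163 in monocytes and 63.1 and 69.3 in C1q cells. For Isg15 the members were thus near the C1q cells, and for Ifit3 they were below both references in the NAM library. For 21 interferon gamma response genes, 18 were lower than in monocytes (median −1.34 and −1.21), and 13 of 24 were lower than in C1q cells (−0.77 and −0.75). Gbp4, an interferon-induced GTPase, was at 51.8 and 77.5 CPM, compared with 132 and 215 in monocytes and 90.6 and 130.4 in C1q cells. Irf1, a transcription factor of the interferon response, was at 40.4 and 88.9 CPM, while monocytes had 109 and 169 and C1q cells 78.5 and 148.

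Genes of the functions for which the score genes are known were then described. Of 19 TGF-beta pathway genes compared with monocytes, 5 were higher and 3 lower, with a median of 0.29 and 0.44. Pmepa1, an inhibitor of TGF-beta signalling that is itself induced by it, was at 98.4 and 129 CPM in these cells, 35.7 and 28.9 in monocytes and 107 and 94.4 in C1q cells. The receptors Tgfbr1 and Tgfbr2 and the integrin Itgav were also among the 5, with Tgfbr1 at 73.6 and 67.2 CPM in members, against 36.7 and 38.8 in monocytes and 75.6 and 72.5 in C1q cells. Tgfbr2 was at 66.3 and 72.6 CPM, compared with 37.8 and 43.7 in monocytes and 115 and 96.6 in C1q cells, below the C1q cells. Against the C1q cells, Tgfbi was the sole gene of 23 that was higher by 1.5-fold or more in both libraries, and none was lower by that much in both. Tgfbi gave part of the score, so its higher level here describes the selection. Of the other HtrA proteases, Htra2, a mitochondrial protease, was the one with enough UMIs to compare, at 51.8 and 58.1 CPM, while monocytes had 39.8 and 37.8 and C1q cells 50.2 and 55.0.

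Leukotriene, channel and sarcomere genes were described in turn. Dpep2, Kcnn4 and Tnni2 gave the score, so counting them as higher below describes the selection. Among all genes compared, 9.86% were higher and 8.87% lower than in monocytes. Against C1q cells these shares were 5.20% and 4.63%. Of 10 leukotriene and dipeptidase genes compared with monocytes, 2 were higher (Dpep2 and the prostaglandin D synthase Hpgds) and 3 lower. Of 14 compared with C1q cells, 2 were higher (Dpep2 and Ltb4r1) and 4 lower. Ltb4r1, the receptor of leukotriene B4, was at 40.4 and 64.7 CPM in these cells, 135 and 198 in monocytes and 16.7 and 24.5 in C1q cells. Cyp4f18, a cytochrome P450 that inactivates leukotriene B4, was among the 12 highest against C1q cells, at 18.7 and 19.97 CPM in members, against 86.9 and 49.1 in monocytes and 3.38 and 3.10 in C1q cells. Of 11 ion channel genes, 2 were higher than in monocytes, Kcnn4 and the potassium channel subunit Kcnab2, and 0 lower. Both troponin and sarcomere genes with enough UMIs to compare with monocytes, Tnni2 and Tpm1, a tropomyosin with isoforms in many cells, were higher, and of 3 compared with C1q cells the same 2 were higher and 0 lower. Tpm1 was at 70.5 and 66.0 CPM, compared with 45.0 and 22.1 in monocytes and 45.6 and 43.6 in C1q cells.

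The 12 genes highest against monocytes included Htra3, Kcnn4, Cxcl14 and, described with the cell cycle genes, Tk1. Pdgfa, the A chain of platelet-derived growth factor, was at 75.6 and 98.6 CPM, while monocytes had 11.9 and 9.81 and C1q cells 58.2 and 43.9. Tspan4, a tetraspanin, was at 112 and 131 CPM in these cells, 20.7 and 33.8 in monocytes and 108 and 122 in C1q cells. Zmynd15 was at 283 and 260.2 CPM in members, against 60.0 and 61.3 in monocytes and 216 and 223 in C1q cells. Olfml3, a secreted glycoprotein, was at 50.8 and 46.6 CPM, compared with 12.4 and 2.94 in monocytes and 24.96 and 21.5 in C1q cells. Pls3, Akr1b8 and Cd79b were lower in level. For Tspan4 and Zmynd15 the members were close to the C1q cells. Cxcl13, a chemokine that attracts B cells, was at 76.7 and 103 CPM, while monocytes had 5.69 and 2.94 and C1q cells 88.5 and 95.2, but 1 cell held 52 of the 74 untreated UMIs and another 161 of the 171 NAM UMIs.

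Of the 12 genes highest against C1q cells, several were also above the C1q cells in monocytes. Dmkn, a secreted protein first described in skin, was at 75.6 and 21.2 CPM in these cells, 171 and 129.5 in monocytes and 4.44 and 3.83 in C1q cells. Sdc1, the proteoglycan syndecan-1, was at 24.9 and 17.5 CPM in members, against 30.02 and 25.02 in monocytes and 4.44 and 3.29 in C1q cells. Nt5e, which encodes the ecto-5′-nucleotidase CD73 that forms adenosine, was at 25.9 and 30.3 CPM, compared with 18.1 and 14.2 in monocytes and 5.10 and 5.29 in C1q cells. Zbtb32, a transcriptional repressor, was at 29.0 and 16.3 CPM, while monocytes had 24.8 and 13.7 and C1q cells 4.04 and 3.71. Bdh2 was at 44.6 and 26.0 CPM in these cells, 18.6 and 7.85 in monocytes and 12.0 and 6.69 in C1q cells. Cav1, a scaffold protein of caveolae, was at 18.7 and 23.6 CPM in members, against 3.11 and 6.87 in monocytes and 5.10 and 5.29 in C1q cells. Ppp1r1a, an inhibitor of protein phosphatase 1, was at 11.4 and 27.2 CPM in the members, 11 and 45 UMIs, and at 2.65 and 2.31 in the C1q cells. Without the 5 highest cells its untreated log2 ratio over C1q cells was −0.25 (−6.16 to 1.79). It had no UMI in the monocytes, so that it was at least 7.34-fold and 18.5-fold higher against a floor of 3 UMIs. For Sdc1 and Dmkn the monocytes were at or above the members, while Nt5e, Cav1 and Bdh2 were highest in the members.

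Part of the replication genes were higher in the Tgfbi Htra3 cells although cells with 3 or more UMIs of Birc5, Top2a and Ube2c had been left out of all populations. Of 10 cell cycle genes, 7 were higher than in monocytes and 0 lower (median 1.27 and 1.53). Of 20 compared with C1q cells 8 were higher and 0 lower (0.87 and 0.46). The 7 were Mcm2, Mcm3, Mcm5, Mcm6, Tyms, Tk1 and Stmn1. Mcm6, a subunit of the replicative helicase, was at 62.2 and 60.5 CPM, compared with 20.2 and 15.7 in monocytes and 28.3 and 26.4 in C1q cells. Tk1, the S phase thymidine kinase, was at 70.5 and 45.4 CPM, while monocytes had 11.9 and 7.36 and C1q cells 20.6 and 18.4. Stmn1, a microtubule regulator of proliferating cells, was at 219 and 141 CPM in these cells, 55.4 and 40.2 in monocytes and 86.0 and 73.5 in C1q cells. Tk1 and Stmn1 were lower in NAM than in untreated members, with log2 ratios of −0.64 (−1.13 to −0.14) and −0.63 (−0.91 to −0.36). Mcm6 was at nearly the same level in both libraries.

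Members with little C1q were then compared with the other members within each library. The 24 untreated and 23 NAM members under 0.2% did not differ from the other 76 and 141 by a common amount in the score genes: the log2 ratio, low over high C1q, was 0.24 and −0.18 for Tgfbi, −0.32 and 0.13 for Htra3, −0.26 (−0.67 to 0.12) and 0.38 (0.10 to 0.65) for Dpep2, with 95% intervals in brackets, and −0.13 and −0.34 for Kcnn4. Ccr2 was also similar, at 344 and 263 CPM in low C1q and 340.0 and 244 in high C1q members. Tnni2, by contrast, was at 145 and 132 CPM against 67.2 and 49.8. All score genes, Tnni2 included, were used to choose the members, so their ratios here describe the selection. Lsp1 was at 453 and 399.6 against 216 and 185 CPM. Plac8 was at 231 and 92.2 against 114 and 47.7 CPM. These 3 genes were higher in low C1q members of both libraries, although without the highest cells Plac8 was at 0.89 (−0.045 to 1.68) in the NAM library. Apoe was at 3377 and 3908 against 6678 and 6759 CPM and Cd63 at 534 and 395 against 1196 and 1406, both lower in low C1q members, while Trem2 differed by −0.11 and −0.12. Ms4a7 was lower too, with ratios of −0.80 and −1.63. C1q was measured in the same cells, so the split describes them and was not tested.

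The libraries differed for other genes. Spp1, the secreted matrix protein osteopontin, had log2 ratios of 0.73 (0.55 to 0.91) and 2.00 (1.88 to 2.12) and Il1b of 0.17 (−0.026 to 0.36) and 1.19 (1.07 to 1.32). Of the 923 Spp1 UMIs in low C1q members of the NAM library, 1 cell held 361 and another 244. Without the highest cell on each side, Spp1 was at 0.99 (0.78 to 1.19) and 1.58 (1.43 to 1.72) and Il1b at 0.062 (−0.16 to 0.27) and 1.07 (0.94 to 1.20). H2-Aa was lower in low C1q members of the untreated library, with ratios of −1.14 (−1.30 to −0.98) and 0.28 (0.20 to 0.36), and 1 cell held 361 of the 1471 UMIs of low C1q members of the NAM library. Without the highest cells its ratios were −1.67 (−1.88 to −1.48) and 0.034 (−0.059 to 0.12), so that no difference in the NAM library was detectable. The difference between libraries in these ratios was not tested.

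**Figure D4:**
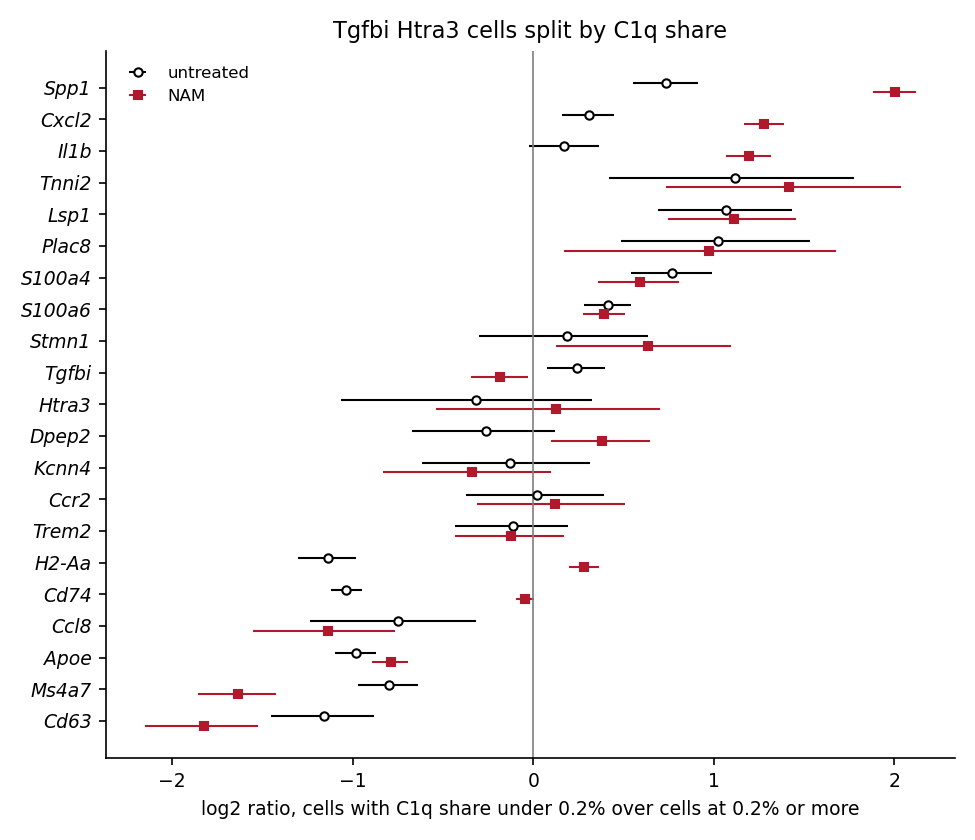
Log2 ratio of members with a C1q share under 0.2% over members at 0.2% or more, for 21 genes. Open circles are the untreated and red squares the NAM library, and bars are 95% intervals of counting. Tgfbi, Htra3, Dpep2, Tnni2 and Kcnn4 gave the score that chose the members. Of these, Tnni2 lies above 0 in both libraries, and Tgfbi, Htra3 and Dpep2 lie on opposite sides of 0. Apoe, Ms4a7 and Cd63 lie below 0 in both libraries.

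The share of Tgfbi Htra3 cells among CD45+ cells was 3.42% (2.79 to 4.15) without and 5.01% (4.28 to 5.81) with NAM, a log2 ratio of 0.55 (0.20 to 0.90). Members at 0.2% C1q or more made up 2.60% and 4.30% of cells, and the 47 members under 0.2%, 24 untreated and 23 NAM cells, 0.821% and 0.702%. For the latter the log2 ratio was −0.23 (−1.05 to 0.60), an interval that takes in both 0 and the ratio of all members. The median score was 0.481 without and 0.540 with NAM over all cells, 0.457 and 0.540 in C1q cells, and 0.651 and 0.610 in monocytes. With 1 library per group, a shift of the score in macrophages cannot be told apart from more cells of this kind.

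Within the Tgfbi Htra3 cells, 88 of 3116 genes (2.82%) were higher in the NAM library by 1.5-fold or more and 100 (3.21%) were lower. MHC class II genes were among the higher ones. Of 8 genes, 5 were higher and 0 lower, with a median of 0.65, compared with 0.46 in Ly6c2 monocytes and 0.41 in C1q cells. H2-Aa had a log2 ratio of 0.79 (0.73 to 0.85) in members, H2-DMb1, which helps to load peptides, 0.85 (0.70 to 1.01), H2-Eb1 0.70 (0.63 to 0.78) and Cd74 0.60 (0.57 to 0.64). The class I gene H2-D1 was at 0.29 (0.24 to 0.33). Members at 0.2% C1q or more were under 1.5-fold for H2-Aa, at 0.56 (0.49 to 0.62), and H2-Eb1, at 0.47 (0.39 to 0.55). H2-DMb1 was at 0.67 (0.50 to 0.84) there. In the 24 and 23 members under 0.2%, H2-Aa was at 1639 and 6459 CPM, and 1 NAM cell held 361 of the 1471 UMIs. H2-DMb1 and H2-DMb2 are near-identical copies that can share reads. In the NAM library, too, members were below both references for H2-Aa, H2-Eb1 and Cd74.

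Of 17 interferon gamma response genes, 5 were higher and 0 lower in NAM members, with a median of 0.25 against 0.38 in monocytes and 0.48 in C1q cells. Irf1 was at 40.4 and 88.9 CPM in members, with a ratio of 1.12 (0.62 to 1.69). Iigp1, an immunity-related GTPase, was at 42.5 and 98.0 CPM, with a ratio of 1.19 (0.70 to 1.74). Socs1, a feedback inhibitor of cytokine receptors, had a ratio of 1.02 (0.49 to 1.62). All 3 were also higher in NAM monocytes, by 0.63, 1.23 and 1.12, and in NAM C1q cells, by 0.92, 0.57 and 0.91. Cxcl9 and Cxcl10 had ratios of 0.18 (−0.20 to 0.57) and 0.10 (−0.16 to 0.36) in members, and Cxcl10 was at −0.51 (−0.80 to −0.22) in the 217 members with 0.2% C1q or more. Over 17 alternatives Cxcl9 ran from −0.38 to 1.24 and Cxcl10 from −0.57 to 2.84. The type I interferon genes did not follow: 1 of 16 was higher (Ifitm1, at 0.80 (0.50 to 1.12)) and 3 were lower (Ifit3, Oasl1 and Usp18), with a median of −0.20. When the cells were scored without Dpep2, Ifitm1 was at −0.47. That direction was not kept in members chosen otherwise, with medians of 0.41 for the top 4% of scores and 0.07 after thinning. Il1rn, the interleukin 1 receptor antagonist, was at −0.10 (−0.29 to 0.10). Of 11 myeloid genes of antigen presentation, interferon and cytokines, 5 were higher and 1, Il10, was lower, but this list was chosen on these same libraries and is not independent evidence.

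Atp1b3, a subunit of the sodium-potassium ATPase, had the highest ratio in members, at 227 and 565 CPM and 1.31 (1.10 to 1.53). It was higher in NAM cells of both references too, by 0.54 in monocytes and 0.82 in C1q cells. Ch25h, which forms 25-hydroxycholesterol, was at 56.0 and 119 CPM and 1.07 (0.64 to 1.55), compared with 0.12 (−0.31 to 0.56) in monocytes and 0.21 (0.12 to 0.30) in C1q cells. Its ratio in members was −0.093 (−0.44 to 0.26) when cells were scored without Tgfbi and 0.13 (−0.19 to 0.46) after thinning. Tnfrsf9, the receptor 4-1BB, was at 1.00 (0.51 to 1.55), compared with 1.28 in monocytes and 0.99 in C1q cells. Egr2 and its corepressor Nab2 were at 1.04 (0.38 to 1.79) and 0.96 (0.40 to 1.58). In the references, Egr2 was at 0.70 in monocytes and 0.55 in C1q cells, and Nab2 at 0.041 and 0.25. Scored without Kcnn4, Tnfrsf9 was at 0.37 (−0.097 to 0.88), and after thinning Egr2 was at 0.18 (−0.39 to 0.78). Slc31a1, a copper importer, was at 1.06 (0.56 to 1.63), and Pdzd11, Slc35e4 and Twistnb completed the 12 highest. After thinning, Slc35e4 was at 0.073 (−0.44 to 0.61) and Twistnb at 0.17 (−0.34 to 0.70), and scored without Tgfbi, Pdzd11 was at 0.49 (−0.067 to 1.08). In the members under 0.2% C1q, Ch25h had a ratio of −1.83 (−4.00 to −0.30), opposite to that of all members, and Nab2 of −1.63 (−5.15 to 0.54), an interval that takes in 0.

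Of 13 heat shock genes, 4 were lower and 0 higher in NAM members, with a median of −0.46, and the medians were −0.48 in monocytes and −0.35 in C1q cells. The inducible chaperone Hspa1a was at 1219.7 and 366 CPM and its near-identical copy Hspa1b at 116 and 18.8, with ratios of −1.74 (−1.88 to −1.59) and −2.61 (−3.25 to −2.04). Reads of these 2 genes can be assigned to either. Hspa5 and Hsp90b1, chaperones of the endoplasmic reticulum, were at 844 and 825 and 419.7 and 397 CPM. Il10, an immunosuppressive cytokine, was at 89.1 and 31.5 CPM, with a ratio of −1.50 (−2.03 to −0.99), and it was lower in the references as well, with ratios of −1.92 in monocytes and −1.60 in C1q cells.

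Other genes with lower levels in NAM members were Plac8, Dmkn and Cx3cr1. Plac8 had a ratio of −1.39 (−1.79 to −0.99) in members and 0.093 (0.039 to 0.15) in monocytes. Dmkn was at −1.83 (−2.46 to −1.24) in members, −0.40 (−0.64 to −0.16) in monocytes and −0.21 (−0.73 to 0.31) in C1q cells. Cx3cr1, the fractalkine receptor, was at −1.56 (−1.81 to −1.31), but 1 untreated cell held 248 of 362 UMIs. Without the highest cell of each library its ratio was 0.017 (−0.32 to 0.37). The same omission left Plac8 at −1.39 (−1.83 to −0.97), Il10 at −1.43 (−2.00 to −0.87) and Irf1 at 1.22 (0.68 to 1.82). Of the score genes, Dpep2 was higher in NAM members, at 0.40 (0.22 to 0.59), Tnni2 lower, at −0.48 (−0.91 to −0.037), and Tgfbi, Htra3 and Kcnn4 were at 0.083 (−0.0036 to 0.17), −0.17 (−0.51 to 0.17) and −0.026 (−0.26 to 0.21). After thinning, Dpep2 was at 0.17 (−0.0071 to 0.35) and Tnni2 at −0.19 (−0.60 to 0.24), and without the highest cells Tnni2 was at −0.40 (−0.86 to 0.065), all with intervals that take in 0. The score selected these cells, so these ratios describe the selection. The part of members with a low C1q share, 24.0% of untreated and 14.0% of NAM members, moved with the libraries. In the members at 0.2% C1q or more, Plac8 was at −1.26 (−1.74 to −0.78) and Dmkn at −2.19 (−2.99 to −1.46). Il10 was at −1.29 (−1.86 to −0.74) there and Irf1 at 1.21 (0.63 to 1.88). What low C1q members add to the ratios was not tested.

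**Figure D5:**
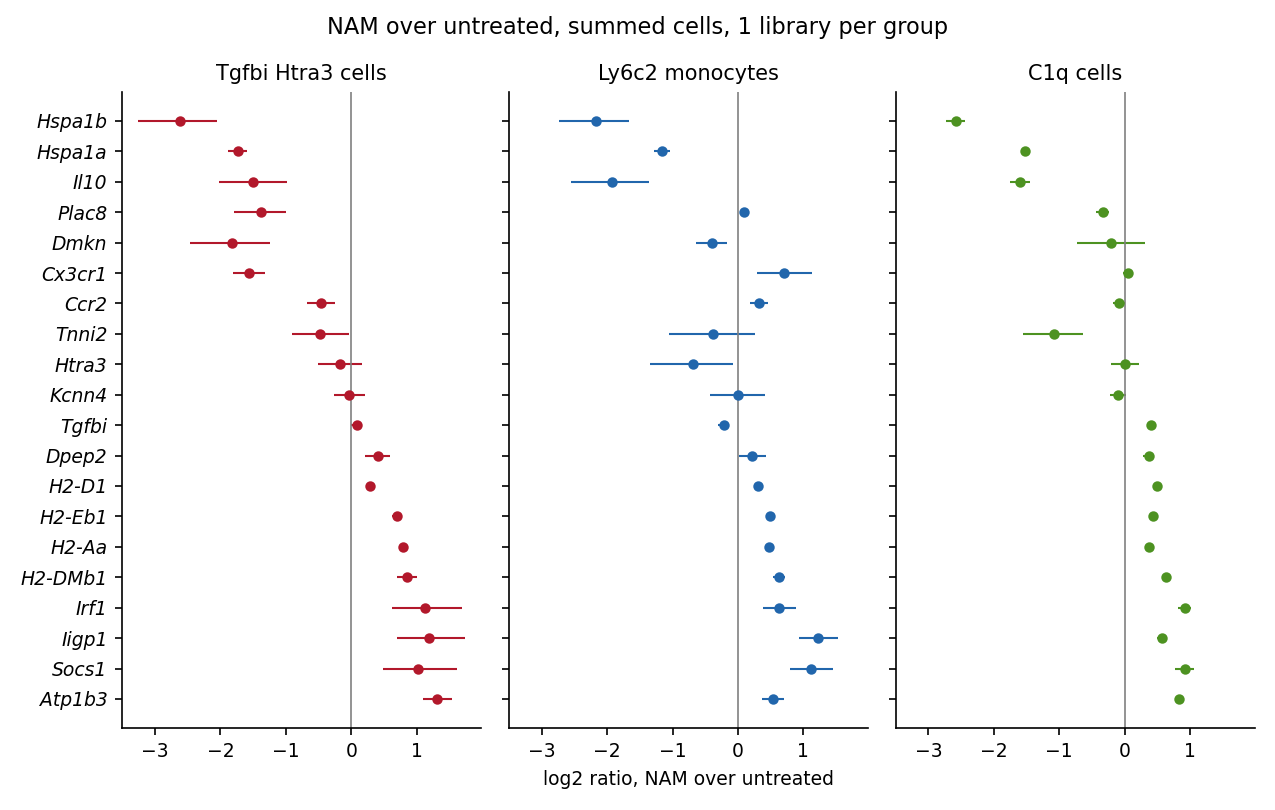
Log2 ratio of CPM, NAM over untreated, in the summed cells of the 3 populations for 20 genes. Points are ratios of 1 library per group and bars are 95% intervals of counting. Hspa1a, Hspa1b and Il10 lie below 0 and H2-Aa, Irf1, Iigp1, Socs1 and Atp1b3 above 0 in all 3 populations, whereas Plac8 and Ccr2 lie below 0 in the Tgfbi Htra3 cells and above 0 in the monocytes.

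Cells next in rank of the score showed how the other genes moved with it. In bands of cells ranked by score, with the same exclusions and both libraries pooled, Ccr2 was at 264 CPM in the highest 2%, 311 in the next 2%, 271 up to 6%, 315 up to 8%, 277 up to 12%, 197 up to 20% and 155 up to 40%. It thus had no step at 6%. Ccl8 was at 271 CPM in the highest 2% and 2619 in the band from 20 to 40%, and Apoe at 4617 and 12409 CPM. H2-Aa was at 4173 and 7191 CPM. Spp1 had no order, with 1354, 683 and 2017 CPM in the first 3 bands. The median C1q share was 1.11% in the highest band and 1.80% in the lowest. A lower threshold would therefore have added cells with more Apoe, Ccl8 and H2-Aa.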

How the data were processed

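CD45+ cells from TSA tumors of untreated and NAM-treated mice were measured as 1 10x Genomics 3′ library per group, with 3 mice pooled. The files deposited by the authors hold raw counts of UMIs for 27998 gene symbols in each cell, made with Cell Ranger on mm10 and not normalized. Seurat was used by the authors downstream. The annotation version is not given in the sources used here. No column of the files was of another sample, no doublet caller was run, and all 6198 barcodes entered the score.

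Cells were scored, ranked over both libraries and then filtered as described above. Members and lists were chosen with earlier results of these data known. UMIs were summed per population and library and divided by the sum of all UMIs (CPM). Log2 ratios of CPM used a pseudocount of 0.5 UMIs, among genes with 100 or more UMIs over the groups compared, and a gene was counted from 1.5-fold, in both libraries for comparisons between populations. For 95% intervals, levels used the exact Poisson distribution, shares of cells the Clopper-Pearson method, ratios of levels a binomial distribution conditional on the sum, and the ratio of shares its log scale. They cover counting error only. For shares of cells with a UMI, cells were also thinned to 3000 UMIs. Named genes are those of the rule and its markers, of the 41 fixed lists (598 entries, 10 without a matching symbol), and the 12 highest and 12 lowest ratios of each comparison, ranked by the smaller of both libraries' ratios or, for NAM, among ratios whose interval left out 0. Genes named from other sources are marked as such. Some genes are counted in the lists and not reported here by name. Positions are from GENCODE vM21 and promoters from RefSeq. Analyses used Python 3.11.15, NumPy 2.4.6, SciPy 1.17.1, pandas 2.3.3 and matplotlib 3.10.9. Counts for NAM over untreated members were also simulated with counting error alone (3116 genes, 200 changed). The interval left out 0 on the true side for 81.0% of genes changed 1.5-fold and 98.5% of those changed 2-fold. Differences between cells or libraries were not simulated, and the 1.5-fold cut was not applied. These shares therefore do not measure how many changed genes the counts above would find. The alternatives were other thresholds, orders of filtering, scores, scalings, pseudocounts and filters, and removal of the highest cells.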

Additional observations from a re-analysis of the deposited data

Results flagged for a closer look

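Of 622 pairs, 311 named or listed genes with 100 or more UMIs in members against 2 references, 35 (5.63%) met the following criterion. The log2 ratio of NAM over untreated had one sign in the Tgfbi Htra3 cells and the opposite sign in a reference, with both 95% intervals of counting apart from 0. The difference was not tested, as each group has 1 library. Values give the members first and the reference second.

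Against the C1q cells, 4 chemokines were higher in NAM members and lower in NAM C1q cells, at 0.37 against −0.15 for Ccl2, 0.59 against −0.29 for Ccl7, 0.67 against −0.20 for Ccl8 and 0.19 against −0.18 for Ccl12. Of all 16 chemokines compared between libraries, 2 were higher and 1 lower in NAM members by 1.5-fold, with a median of 0.059. A single cell held 23.1% of the Ccl8 UMIs of members, and for Ccl7, Ccl12 and Ccl2 this was 15.9%, 14.4% and 11.0%. Lower in NAM members and higher in NAM C1q cells were 6 genes of interferon response, antigen presentation or Fc receptor lists, at −0.67 against 0.13 for Ifit3, −0.30 against 0.15 for Ifitm3, −0.21 against 0.24 for Irf7, −0.46 against 0.11 for Bst2, −0.17 against 0.11 for B2m and −0.31 against 0.20 for Fcgr1. Of immediate early genes, 4 met this criterion, at −0.24 against 0.19 for Fos, −0.61 against 0.12 for Atf3, −0.19 against 0.13 for Dusp1 and 0.18 against −0.10 for Ier3. Of macrophage and lectin genes, the values were 0.10 against −0.059 for Apoe, 0.30 against −0.025 for Lyz2 and 0.72 against −0.51 for Mgl2, where 1 cell held 19.2% of the Mgl2 UMIs. The remaining pairs were 0.39 against −0.18 for Pmepa1, −0.050 against 0.016 for Fth1 and 0.10 against −0.056 for Ftl1.

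Against the Ly6c2 monocytes, Ccr2, Plac8 and Cx3cr1 were lower in NAM members and higher in NAM monocytes, at −0.47 against 0.32 for Ccr2, −1.39 against 0.093 for Plac8 and −1.56 against 0.71 for Cx3cr1, and 1 cell held 43.4% of the Cx3cr1 UMIs. Without the highest cell of each library Cx3cr1 was at 0.017 (−0.32 to 0.37) in members, so its lower level rests on that cell. The secreted factors Ccl2, Ccl7, Il1b and Spp1 were higher in NAM members and lower in NAM monocytes. Values were 0.37 against −0.39 for Ccl2, 0.59 against −0.12 for Ccl7, 0.44 against −0.14 for Il1b and 0.26 against −0.80 for Spp1. A single cell held 10.2% of the Spp1 UMIs. Spp1 was at 1040 and 1013 CPM in untreated and NAM members at 0.2% C1q or more. Under 0.2% it was at 1729 and 4053 CPM, so its higher level rests on those cells. Also lower in NAM members and higher in NAM monocytes were Ifit3, Ifitm3, Atf3 and Fos, at −0.67 against 0.46 for Ifit3, −0.30 against 0.092 for Ifitm3, −0.61 against 0.41 for Atf3 and −0.24 against 0.23 for Fos. The others were 0.28 against −0.29 for Cd63, 0.46 against −0.39 for Fabp5, 0.38 against −0.83 for Gpr183 and 1.03 against −0.55 for Pdzd11. Gpr183 is a receptor of oxysterols. The pairs were picked by this criterion and do not describe their gene lists.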

How the results depend on the processing

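With 1 library per group, leaving out a replicate was not possible. No paired analysis was possible because each group has 1 library. Over the alternatives, 98 counts of genes and share ratios stayed close to the value reported, 6 moved and 1 reversed, and of the values of single genes and lists 2436 stayed, 450 moved and 29 reversed. Where a value moved or reversed, the cause was not tested. Only 166 of the 264 members were also chosen after thinning to 3000 UMIs, and 181 to 227 after leaving 1 gene out of the score, so that the membership of single cells depends on depth and on each score gene.

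The share ratio was −0.23 with only the members under 0.2% C1q. In these cells 35 genes were lower in NAM, and 1132 were higher and 705 lower than in C1q cells. Ratios of NAM over untreated there were −1.83 for Ch25h, 0.014 for Cx3cr1 and −1.63 for Nab2, the intervals of Irf1, Iigp1 and Dmkn took in 0, and those over monocytes were −1.39 and −0.54 for Cxcl13. A filter of 30 UMIs, which tests more genes, gave 399 genes higher and 442 lower in NAM, and 1030 higher than in monocytes. The NAM median of type I interferon genes was 0.41 with the top 4% of cells, 0.073 after thinning and 0.044 without Htra3 in the score. After thinning, the medians were 0.10 for non-classical monocyte genes, −0.097 for matrix genes, −0.20 for glycolysis genes and −0.15 for lipid-associated genes. In the members as chosen, these medians were −0.33, 0.14, 0.12 and 0.10.

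Scored without Tgfbi, the cells had NAM ratios of −0.093 for Ch25h and 0.029 for Cx3cr1, and medians of −0.035 for matrix genes and −0.083 for lipid-associated genes. Their untreated Tgfbi ratio over monocytes was −0.28. Without Dpep2, Ifitm1 was at −0.47, matrix genes at −0.022 and glycolysis genes at −0.13. Without Kcnn4, glycolysis genes were at −0.034, Cxcl13 over untreated monocytes at −0.18, and Cd209d and Retnla over NAM C1q cells at 0.12 and 1.95. Without the 5 highest cells, Cx3cr1 was at 0.44 for NAM, Ppp1r1a over untreated C1q cells at −0.25 and Retnla over NAM C1q cells at 1.05. Without the highest cell of each library, a setting added after seeing the data and also used for the C1q split, Cx3cr1 was at 0.017. Against comparison cells taken by Ly6c2 or C1q alone, Ccr2 over untreated monocytes was at 0.040. The members held 964986 and 1652656 UMIs, which limits genes under about 100 UMIs.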

Other observations

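Part of the checkpoint, Fc receptor and iron genes were lower in the Tgfbi Htra3 cells than in a reference. Of 11 checkpoint and costimulation ligands, 5 were at least 1.5-fold lower than in monocytes in both libraries and 0 were higher, and 4 of 15 were lower than in C1q cells. Cd274, the ligand of PD-1, was at 19.7 and 19.4 CPM, while monocytes had 84.9 and 83.4 and C1q cells 42.4 and 46.4. Cd40, a costimulatory receptor, was at 43.5 and 48.4 CPM in these cells, 204 and 134 in monocytes and 81.5 and 98.3 in C1q cells. Of 6 Fc receptor genes, 3 were lower than in C1q cells, with a median of −0.89 and −0.60. Fcgr4 was at 197 and 205 CPM in members, against 334 and 487 in monocytes and 423 and 569 in C1q cells. Of 12 iron and antioxidant genes, 7 were lower than in monocytes. Hmox1, which degrades heme, was at 131 and 93.8 CPM, compared with 238 and 210.4 in monocytes and 344 and 276 in C1q cells. Among all genes compared, 8.87% were lower and 9.86% higher than in monocytes and 4.63% lower and 5.20% higher than in C1q cells. None of these lists was counted lower or higher in NAM members.

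Of genes that make or use NAD, the coenzyme formed from nicotinamide, 5 of 11 were lower than in monocytes, and 1 of 20, Cd38, was lower than in C1q cells, a share near that of all genes. Of 6 compared between libraries, 0 were higher or lower in NAM members by 1.5-fold, with a median of 0.089. Nampt, the enzyme that forms the precursor of NAD from nicotinamide, was at 77.7 and 76.8 CPM, while monocytes had 145 and 134 and C1q cells 103 and 113, with a ratio of NAM over untreated of −0.020 (−0.44 to 0.42) in members. Of 28 myeloid transcription factors, 2 were higher than in monocytes, Cebpa and Klf2, a smaller share than among all genes, and 8 were lower. Cebpa was at 97.4 and 79.9 CPM in these cells, 46.6 and 43.7 in monocytes and 108 and 103 in C1q cells. Maf, a macrophage transcription factor, was at 78.8 and 58.7 CPM in members, against 70.4 and 59.8 in monocytes and 156 and 97.8 in C1q cells. Against C1q cells, 8 of 33 were lower, a larger share than among all genes. Bhlhe40 was the 1 of 33 that was higher, also a smaller share than among all genes. Its level was 85.0 and 68.4 CPM, compared with 125 and 94.7 in monocytes and 45.6 and 32.0 in C1q cells. Of 18 lipid-associated macrophage genes, 3 were higher than in C1q cells, Spp1, Lpl and Olr1, and 5 lower. Spp1 was at 1198 and 1432 CPM, while monocytes had 1721 and 987 and C1q cells 504 and 493, and 1 untreated cell held 237 of the 1156 Spp1 UMIs.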
